A study of Mus musculus with 9 samples.

Results

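The genes described here are 49 mouse genes that license, fire and copy DNA or that are switched on as cells pass from G1 into S phase. They were taken by gene symbol from a table of 55286 genes, all 49 were found, and all 49 passed the filter on low counts. They were grouped by step into 10 licensing genes, 7 genes of origin firing, 14 fork genes, 7 polymerase and primase genes, 5 genes of nucleotide supply, 2 regulators of the G1 to S transition and 4 genes that act on the chromatin behind the fork. RNA-seq libraries came from wild-type mouse embryonic lungs. The EPZ5676 group held 3 libraries of lung explants grown for 72 h with EPZ5676, a small-molecule inhibitor of DOT1L, which places methyl groups on histone H3 at lysine 79 (H3K79). The Control group held 3 libraries of explants grown for 72 h without it, and the E11.5 group held 3 libraries of lungs taken on embryonic day E11.5, the stage at which the explants were started. The labels give no dose, vehicle, strain or sex, and do not say whether the libraries of a group came from separate litters or pools, so p-values measure only the spread between these libraries. The series title names epithelial proliferation as its subject. The levels of S-phase genes in treated explants, set against Control explants and against the lung before culture, are one readout of that question in whole tissue.

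Replication begins when the origin recognition complex, with CDC6 and CDT1, loads the ring-shaped MCM2-7 helicase onto DNA in G1. DBF4-dependent kinase, CDC45 and the GINS complex then turn that helicase on, and polymerases alpha, delta and epsilon copy the unwound strands behind it. The PCNA clamp holds polymerases delta and epsilon to DNA. Deoxynucleotides are supplied by ribonucleotide reductase and its partners. Many of these genes are transcribed together by E2F factors once RB-family proteins release them, and dividing tissue such as the early embryonic lung expresses them at high levels.

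Promoter windows of 300 bases, from 250 before to 50 after the annotated start, were available in the RefSeq table (build GRCm38.p6) for 40 of the 49 genes, in 46 windows. Exo1, Gins1, Gins2, Gins4, Mcm4, Pole, Prim2, Rfc2 and Tipin had none there. An E2F word was searched on both strands as any of TTTCCCGC, TTTCGCGC, TTTGCCGC and TTTGGCGC, and 16 of the 46 windows (34.8%) held at least 1. The same words stood in 2.26% of all 32851 windows and in 3.76% of the windows of the genes tested. The 4 windows shown are those of the genes with the word that fell most in culture. They are printed 5′ to 3′ on the gene's strand, with E2F words in capitals. The Mcm3 window lies at chr1:20820263-20820562 on the minus strand, that of Gins3 at chr8:95633309-95633608 on the plus strand, that of Clspn at chr4:126556730-126557029 on the plus strand and that of Uhrf1 at chr17:56304063-56304362 on the plus strand.
Mcm3: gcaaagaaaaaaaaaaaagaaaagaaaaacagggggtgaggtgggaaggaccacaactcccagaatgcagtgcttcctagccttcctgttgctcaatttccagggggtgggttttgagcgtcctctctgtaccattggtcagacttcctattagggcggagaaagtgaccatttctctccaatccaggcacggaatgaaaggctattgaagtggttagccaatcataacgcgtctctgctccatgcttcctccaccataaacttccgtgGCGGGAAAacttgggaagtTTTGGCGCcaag
Gins3: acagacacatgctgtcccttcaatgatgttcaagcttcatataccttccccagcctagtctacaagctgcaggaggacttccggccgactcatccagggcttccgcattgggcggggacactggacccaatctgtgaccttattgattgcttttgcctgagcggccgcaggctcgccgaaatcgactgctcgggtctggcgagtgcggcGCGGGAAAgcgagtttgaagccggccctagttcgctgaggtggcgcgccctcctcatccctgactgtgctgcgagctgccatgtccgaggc
Clspn: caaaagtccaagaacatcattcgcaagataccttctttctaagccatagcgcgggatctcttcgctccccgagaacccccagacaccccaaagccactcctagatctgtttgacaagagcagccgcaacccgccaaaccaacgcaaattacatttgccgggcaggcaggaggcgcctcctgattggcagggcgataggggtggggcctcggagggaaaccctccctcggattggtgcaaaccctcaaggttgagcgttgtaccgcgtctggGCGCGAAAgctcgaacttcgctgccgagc
Uhrf1: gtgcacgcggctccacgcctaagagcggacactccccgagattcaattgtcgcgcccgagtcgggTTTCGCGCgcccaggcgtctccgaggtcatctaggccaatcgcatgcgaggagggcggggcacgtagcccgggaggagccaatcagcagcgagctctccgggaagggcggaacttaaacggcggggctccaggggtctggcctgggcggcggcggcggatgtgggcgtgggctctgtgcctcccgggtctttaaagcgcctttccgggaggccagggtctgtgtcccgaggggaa

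Mcm3 held 2 such words, both downstream of the annotated start, and Clspn held 1, also downstream. The Gins3 word lay 41 bases before the start and the Uhrf1 word 185 bases before the start of the window shown. Another Uhrf1 window, upstream of that one at chr17:56303087-56303386, held no E2F word. Across the 46 windows there were 22 words, 14 of them within 50 bases of the start. The CCAAT box (CCAAT or its reverse complement) stood in 58.7% of the windows of these genes, against 37.3% of the windows of the genes tested and 37.4% of all windows. The CHR word of G2/M promoters (TTTGAA, both strands) stood in 13% of these windows, against 12.1% of the windows of the genes tested and 17.9% of all windows. Of 59 windows of other replication genes, 28.8% held an E2F word, 42.4% a CCAAT box and 22% a CHR word. In 46 mitosis genes the order was different, with an E2F word in 6.98%, a CCAAT box in 79.1% and a CHR word in 69.8% of 43 windows. A word is a match of letters and was not tested as a binding site.

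**Figure D1:**
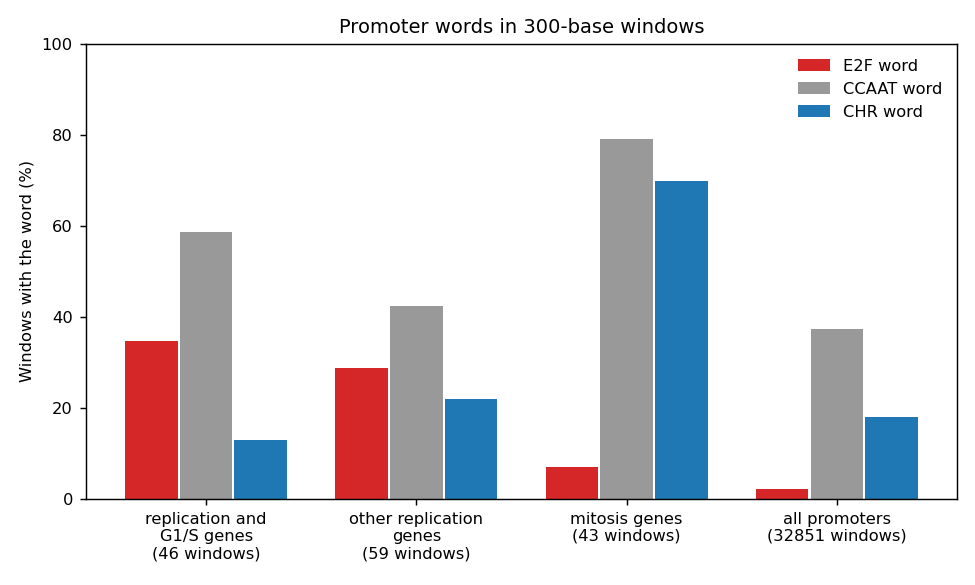
Percent of promoter windows (y axis) that hold an E2F word, a CCAAT box or a CHR word, for the 49 replication and G1/S genes, 58 other replication genes, 46 mitosis genes and all promoters. The E2F word stands in 34.8% of the windows of the 49 genes, 28.8% of the other replication windows and 6.98% of the mitosis windows. The CHR word stands in 13%, 22% and 69.8% of them.

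Library totals ran from 6509563 counts (Control 2) to 9861452 counts (Control 1), and counts of the 49 genes lay between 50 (E2f2) and 2972 (Mcm6). Levels below are TMM-scaled CPM (counts scaled to a common library size), which compare libraries for 1 gene. Deposited TPM (transcript abundance scaled to a common total), which account for length, are used to compare levels between genes. The lung identity of the tissue was present in all groups: Nkx2-1, the transcription factor of lung epithelium, stood at 96.62, 84.85 and 83.97 TPM in EPZ5676, 78.22, 75.41 and 71.71 TPM in Control, and 37.59, 38.66 and 30.1 TPM in E11.5 libraries. The cell makeup moved with culture. Summed TPM of 10 epithelial markers was 978.8 to 1337 in EPZ5676, 656.6 to 1087 in Control and 347.2 to 368.5 in E11.5 libraries, and 9 of the 10 rose in Control against E11.5. That of 10 leukocyte markers was 916.9 to 1094 in EPZ5676, 676.2 to 792.2 in Control and 33.94 to 52.48 in E11.5 libraries, and all 10 rose. Most of the cultured sums was 1 gene, Lyz2. It stood at 594.77 to 649.75 TPM in EPZ5676, 382.74 to 504.78 TPM in Control and 2.61 to 5.18 TPM in E11.5 libraries. Ptprc moved less, at 4.16 to 5.32 TPM in EPZ5676, 2.99 to 5.14 TPM in Control and 1.11 to 2.94 TPM in E11.5 libraries. Endothelial markers summed to 42.04 to 91.13 TPM in EPZ5676, 26.86 to 114.3 in Control and 274.3 to 295.3 in E11.5 libraries, and all 10 fell in Control against E11.5. The 11 erythroid markers in the table, of 12 listed, summed to 75.61 to 988.7 TPM in EPZ5676, 108.3 to 949.8 in Control and 16920 to 24030 in E11.5 libraries, with 10 of the 11 lower in Control at an adjusted p under 0.05 and Gata1 at 0 in 5 of the cultured libraries. Mesenchymal markers summed to 2301 to 2604 TPM in EPZ5676, 2308 to 2978 in Control and 1646 to 1886 in E11.5 libraries. They did not move together: of 10, 4 rose, 2 fell and 4 were not called in Control against E11.5. Much of the sum was Col3a1, at 894.21 to 1031.31 TPM in Control and 451.65 to 596.63 TPM in E11.5 libraries. Of all genes tested, 16.6% fell and 21.1% rose in that comparison. Control 1 had the highest sums of liver (306.4 TPM) and heart muscle markers (227.2 TPM), and 7 of the 10 liver markers were at 0 in at least 1 library. Xist lay under 1 TPM in EPZ5676 1, EPZ5676 3 and Control 3 and between 72.47 and 284.27 TPM in the other 6 libraries, so libraries low in Xist were not spread evenly over the groups. The part of any of these in the changes below was not tested. In whole tissue, fewer cells in S phase and less RNA of a gene per cell cannot be told apart.

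In TPM, Pcna, the sliding clamp, had the highest mean of the 49 genes in each group, at 264 ± 18.9 TPM in EPZ5676, 300 ± 48.3 TPM in Control and 366 ± 24.1 TPM in E11.5 libraries (SD, n = 3 each). E2f2 had the lowest, at 6.9 ± 1.62 TPM in EPZ5676, 5.0 ± 1.97 TPM in Control and 4.82 ± 0.0896 TPM in E11.5 libraries. The genes next below Pcna in E11.5 lungs were Rrm1, at 214 ± 9.59 TPM, Tyms, at 208 ± 23.3 TPM, and Mcm7, at 206 ± 23.3 TPM, which overlapped within their spread. Summed over the 49 genes, TPM was 3392, 3150 and 3256 in EPZ5676 libraries, 3609, 3468 and 3320 in Control libraries, and 4360, 4763 and 4771 in E11.5 libraries. Every cultured library lay below every E11.5 library, and EPZ5676 and Control libraries overlapped.

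**Figure D2:**
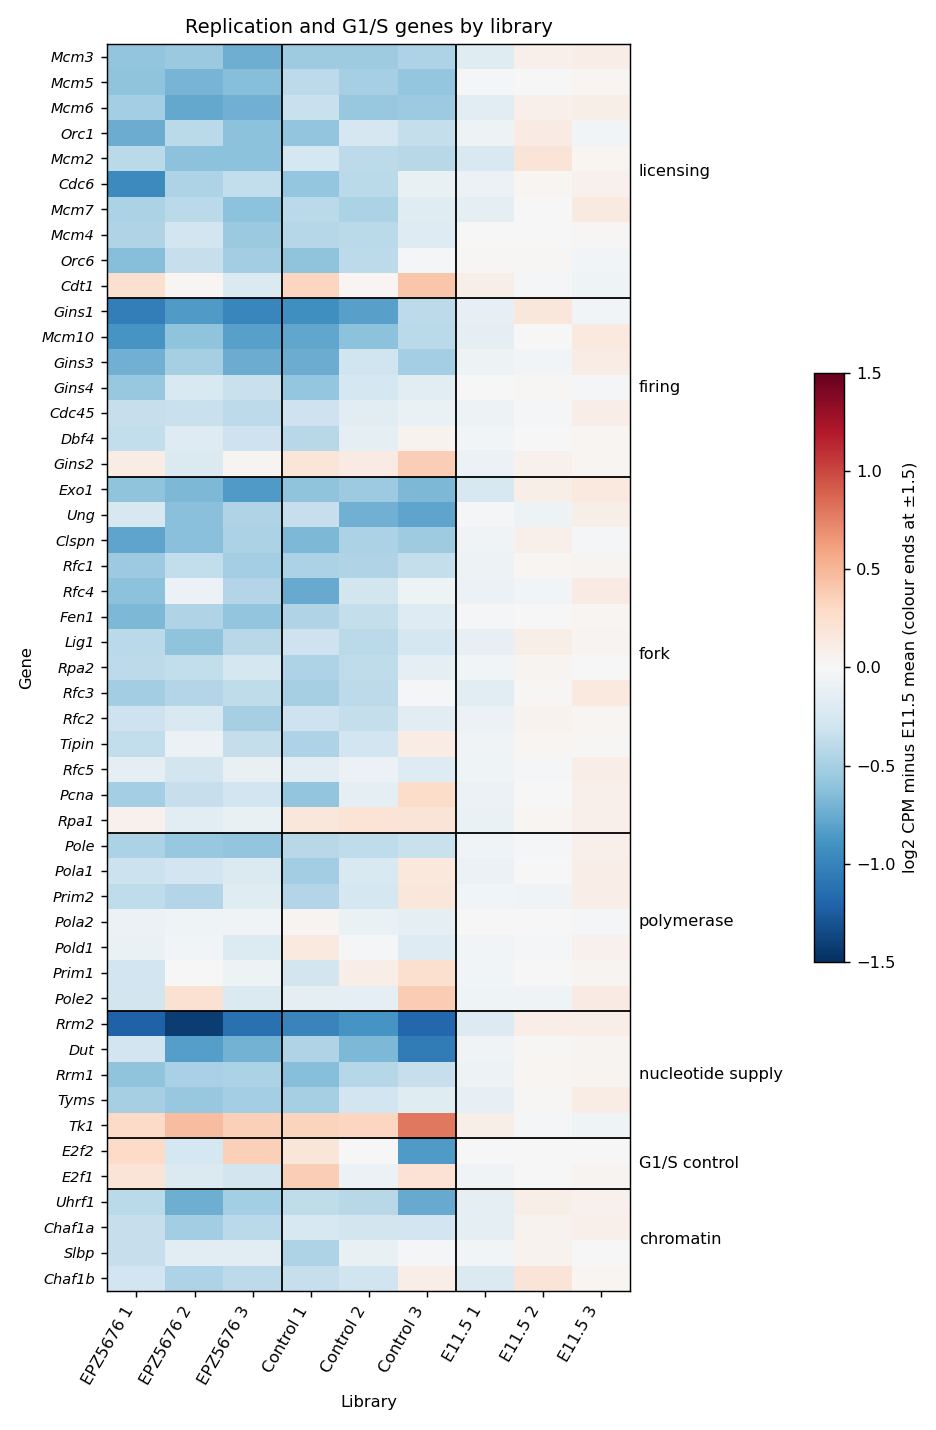
Heat map of the 49 genes (rows, by step) in the 9 libraries (columns, EPZ5676, Control, then E11.5). Colour is log2 CPM minus the gene's mean in the 3 E11.5 libraries. Most licensing, fork and nucleotide genes are lower in the 6 cultured libraries than in the 3 E11.5 libraries, while Tk1 is higher there.

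Over 72 h of culture without the inhibitor, 25 of the 49 genes fell and 1, Tk1, rose (Control against E11.5, edgeR quasi-likelihood test, Benjamini-Hochberg adjusted p under 0.05 over 15158 genes). Of all genes tested, 16.6% fell and 21.1% rose, whereas 51% of these 49 fell. The median log2 fold change of the 49 was -0.33, a change of -20.2%, against 0.02 for all genes tested. In 42 of the 49 the fold change was below 0, against 48.7% of all genes. CPM ranges of Control and E11.5 libraries did not overlap, with Control lower, in 29 of the 49 (59.2%), against 24.9% of all genes tested. The count of the 49 called depended on the libraries kept. Without E11.5 2 it was 15 and without E11.5 3 it was 13, with Tk1 no longer called in either. The median log2 fold change stayed at -0.31 and -0.29. Calls over all genes tested also dropped in these fits, from 5711 to 3993 and 3919. Without Control 1 or Control 2 the count of the 49 called was 18, without E11.5 1 it was 24 and without Control 3 it was 30. Exo1, Clspn, Dut, Gins1, Mcm10, Mcm3, Mcm5, Mcm6, Pole, Rfc1, Rrm1, Rrm2 and Uhrf1 were called in each of the 16 alternative analyses run, and the other 13 calls were lost in at least 1 of them.

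Of the 10 licensing genes, 7 fell (70%, against 16.6% of all genes tested), with a median log2 fold change of -0.36. All 6 subunits of the MCM2-7 helicase were among them. Mcm3 stood at 151.4, 155.3 and 137.7 CPM in EPZ5676, 157.3, 157.3 and 165.3 CPM in Control, and 201.2, 241 and 244.7 CPM in E11.5 libraries. All 6 cultured libraries lay below all 3 E11.5 libraries, and Control differed from E11.5 by a log2 fold change of -0.52 ± 0.10 (SE, adjusted p = 0.00203). Mcm5 stood at 139.4, 130.7 and 135.5 CPM in EPZ5676, 161.7, 149.6 and 141.5 CPM in Control, and 208.5, 210.8 and 215.7 CPM in E11.5 libraries. Every cultured library lay below every E11.5 library, with a log2 fold change of -0.49 ± 0.08 in Control against E11.5 (adjusted p = 0.00102). Mcm6 stood at 258.2, 215.4 and 223.5 CPM in EPZ5676, 291.2, 248.7 and 253.1 CPM in Control, and 328.9, 388.5 and 390.1 CPM in E11.5 libraries, and fell by a log2 fold change of -0.48 ± 0.11 in Control (adjusted p = 0.00598). Its cultured libraries did not reach the lowest E11.5 library. Mcm2, Mcm4 and Mcm7 fell by smaller amounts, with log2 fold changes of -0.36, -0.34 and -0.35, and each lost its call when E11.5 2 or E11.5 3 was left out (adjusted p = 0.0543 to 0.13). Without Control 2 the same 3 genes missed the threshold too (adjusted p = 0.0589 to 0.0825), as did Mcm4 and Mcm7 without Control 1, and Mcm2 without Control 3 and in the TPM fits. Orc1, the largest subunit of the origin recognition complex, also fell, to 17.44, 22.19 and 20.51 CPM in Control, against 24.94, 28.65 and 25.72 CPM in E11.5 libraries (adjusted p = 0.0471). Its call held in 6 of the 16 alternatives. It was lost with DESeq2 (adjusted p = 0.0537), with no filter, in the fit of the 6 libraries compared, in the TPM fits and without any 1 library except Control 2 (adjusted p = 0.0637 to 0.159). Cdc6, which helps to load the helicase, and Orc6 had log2 fold changes of -0.36 and -0.32 and were not called (adjusted p = 0.104 and 0.0959). Both were called when Control 3 was left out (adjusted p = 0.036 and 0.0073). Orc6 was also called lower in the TPM fits of all libraries (adjusted p = 0.00562 and 0.00556). Cdt1, the other loader, stood at 38.96, 33.61 and 28.31 CPM in EPZ5676, 41.15, 33.59 and 44.04 CPM in Control, and 35.16, 32.33 and 31.46 CPM in E11.5 libraries. Its groups overlapped, and its fold change in Control against E11.5 was above 0 and not called (0.26 ± 0.14, adjusted p = 0.174).

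Of the 7 genes that turn the loaded helicase on, Gins1, Gins3 and Mcm10 fell (42.9%, against 16.6% of all genes tested). Gins1, a subunit of the GINS complex, stood at 16.06, 18.21 and 16.73 CPM in EPZ5676, 17.44, 18.8 and 25.28 CPM in Control, and 30.35, 37.23 and 32.23 CPM in E11.5 libraries. The groups did not overlap with E11.5, and the fold change in Control was 0.614 (log2 -0.70 ± 0.16, adjusted p = 0.00571). Mcm10, which binds the activated helicase, stood at 39.79, 48.57 and 41.75 CPM in EPZ5676, 42.81, 48.23 and 55.96 CPM in Control, and 67.01, 73.85 and 81.67 CPM in E11.5 libraries. Its log2 fold change in Control was -0.60 ± 0.13 (adjusted p = 0.00425). Gins3 stood at 20.78, 24.28 and 20.3 CPM in EPZ5676, 20.28, 27.89 and 24.01 CPM in Control, and 32.6, 33.25 and 37.19 CPM in E11.5 libraries (log2 -0.52 ± 0.14 in Control, adjusted p = 0.0155). It lost its call without Control 1 or E11.5 3 (adjusted p = 0.0514 and 0.0675). Gins4 and Cdc45, the helicase partner, were lower in every Control library than in any E11.5 library, with log2 fold changes of -0.33 and -0.20, and were not called (adjusted p = 0.0726 and 0.147). Gins4 was called lower in the TPM fits (adjusted p = 0.0279 and 0.0268) and without Control 3 (adjusted p = 0.0382). Dbf4, the activating subunit of the firing kinase, was not called and its CPM ranges overlapped. Gins2 gave opposite directions in counts and in TPM. It stood at 65.29, 51.82 and 61.77 CPM in EPZ5676, 68.38, 65.49 and 77.58 CPM in Control, and 56.49, 62.82 and 61.52 CPM in E11.5 libraries, with a log2 fold change of 0.23 ± 0.11 in Control (adjusted p = 0.134). In TPM it averaged 27.5 ± 5.52 in EPZ5676, 30.4 ± 3.45 in Control and 47.7 ± 5.54 in E11.5 libraries (SD, n = 3 each), and a limma fit of log2(TPM + 1) gave -0.63 in Control (adjusted p = 0.0176). No direction is therefore given for Gins2.

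At the fork, 8 of 14 genes fell (57.1%, against 16.6% of all genes tested). Exo1, an exonuclease of DNA repair and replication, stood at 55.25, 52.56 and 46.47 CPM in EPZ5676, 55.35, 57.48 and 52.78 CPM in Control, and 71.21, 89.63 and 93.45 CPM in E11.5 libraries. Its log2 fold change in Control, -0.62 ± 0.12 (adjusted p = 0.00227), was the largest in size of the 14. Clspn, which carries the replication checkpoint signal from the fork, stood at 61.16, 68.41 and 75.78 CPM in EPZ5676, 66.33, 76.12 and 72.97 CPM in Control, and 102.2, 112 and 103.5 CPM in E11.5 libraries. Its cultured libraries lay well below its E11.5 libraries (log2 -0.56 ± 0.10 in Control, adjusted p = 0.00155). Ung, the glycosylase that removes uracil from DNA, stood at 21.61, 16.44 and 18.59 CPM in EPZ5676, 20.08, 15.41 and 14.63 CPM in Control, and 25.24, 24.36 and 27.27 CPM in E11.5 libraries (log2 -0.61 ± 0.16 in Control, adjusted p = 0.0128). Its call was lost without E11.5 3 (adjusted p = 0.0521) and in the TPM fits (adjusted p = 0.0838 and 0.0853). The other genes of this step that fell were Rfc1, the large subunit of the clamp loader (log2 -0.43, adjusted p = 0.00265), Rfc2, Rpa2, the flap nuclease Fen1 and the ligase Lig1. Each of these last 4 lost its call without Control 2, E11.5 2 or E11.5 3 (adjusted p = 0.0559 to 0.13). Rfc2, Rpa2 and Fen1 also lost it without Control 1, Rpa2 without E11.5 1, and Rfc2 and Rpa2 with no filter on low counts (adjusted p = 0.115 and 0.0696). Pcna was not called, with 188.3, 256.9 and 344.3 CPM in Control and 268.3, 284.8 and 299.9 CPM in E11.5 libraries. The 3 Control libraries spanned the whole E11.5 range, and the sign of the Pcna fold change (log2 -0.11) turned to 0.08 without Control 1. Rpa1, the large subunit of the single-strand binding protein, stood at 217.6, 222.7 and 221 CPM in Control and 180.7, 197.6 and 203.5 CPM in E11.5 libraries. By CPM it was higher in every Control library than in any E11.5 library, and it was not called (log2 0.18 ± 0.09, adjusted p = 0.126). By TPM the groups overlapped, with 147.72, 141.03 and 115.6 TPM in Control and 117.78, 121.96 and 127.73 TPM in E11.5 libraries. Rfc3, Rfc4, Rfc5 and Tipin were not called. Without Control 3, Rfc3 and Tipin were called lower (adjusted p = 0.0116 and 0.0216), as was Rfc4 in the TPM fits (adjusted p = 0.0447).

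Of the 7 polymerase and primase genes, 1 fell (14.3%), which is near the 16.6% of all genes tested, and the median log2 fold change was -0.06. The gene that fell was Pole, the catalytic subunit of polymerase epsilon, at 90.44, 84.7 and 83.07 CPM in EPZ5676, 94.15, 96.15 and 99.36 CPM in Control, and 121.4, 123.5 and 132.2 CPM in E11.5 libraries. Its log2 fold change in Control was -0.38 ± 0.08 (adjusted p = 0.00318), and its cultured libraries did not reach any E11.5 library. Pola1, the catalytic subunit of polymerase alpha, stood at 100.4, 102.9 and 108.2 CPM in EPZ5676, 87.78, 107.2 and 140.2 CPM in Control, and 117.9, 125.3 and 134.4 CPM in E11.5 libraries. Control 3 was above all E11.5 libraries and Control 1 was below all of them (log2 -0.17 ± 0.14, adjusted p = 0.367). Prim2, the large primase subunit, also had Control 3 above all E11.5 libraries, at 35.06, 33.46 and 40.03 CPM in EPZ5676, 33.6, 38.06 and 51.35 CPM in Control, and 44.32, 43.82 and 48.81 CPM in E11.5 libraries (log2 -0.16 ± 0.15, adjusted p = 0.439). Without Control 3, Pola1 and Prim2 were called lower (adjusted p = 0.0194 and 0.0464). Pola2, Prim1, Pold1 and Pole2 had log2 fold changes between -0.06 and 0.05 and were not called.

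All 5 genes of nucleotide supply were called, 4 lower (80%, against 16.6% of all genes tested) and 1 higher (against 21.1% of all genes tested). Rrm2, the small subunit of ribonucleotide reductase, which is made in S phase, had the largest change of the 49, at 92.09, 79.36 and 98.8 CPM in EPZ5676, 107.5, 115.9 and 94.11 CPM in Control, and 185.5, 229.7 and 230.3 CPM in E11.5 libraries. Control differed from E11.5 by -50.8% (log2 -1.02 ± 0.12, adjusted p = 0.000146), and no cultured library came near the lowest E11.5 library. Rrm1, the large subunit, fell less (log2 -0.47 ± 0.09, adjusted p = 0.00328). Dut, which hydrolyses dUTP, stood at 65.29, 44.72 and 48.47 CPM in EPZ5676, 58.1, 49.62 and 38.15 CPM in Control, and 76.47, 80.74 and 81.51 CPM in E11.5 libraries (log2 -0.71 ± 0.17 in Control, adjusted p = 0.00765). Tyms, thymidylate synthase of the de novo pathway, stood at 88.31, 84.1 and 87.93 CPM in EPZ5676, 88.47, 102 and 110.5 CPM in Control, and 114.3, 126.4 and 134.8 CPM in E11.5 libraries. It fell in Control (log2 -0.32 ± 0.10, adjusted p = 0.0262), and its call was lost with no filter on low counts (adjusted p = 0.0559) and without Control 1, E11.5 2 or E11.5 3 (adjusted p = 0.0758 to 0.105). Tk1, the thymidine kinase of the salvage pathway, went the other way, at 56.08, 63.23 and 59.19 CPM in EPZ5676, 57.9, 57.63 and 79.81 CPM in Control, and 48.68, 45.5 and 43.86 CPM in E11.5 libraries. All cultured libraries were above all E11.5 libraries (log2 0.50 ± 0.13 in Control, adjusted p = 0.0131), and the call was lost without E11.5 2 or E11.5 3 (adjusted p = 0.0505 and 0.0598).

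**Figure D3:**
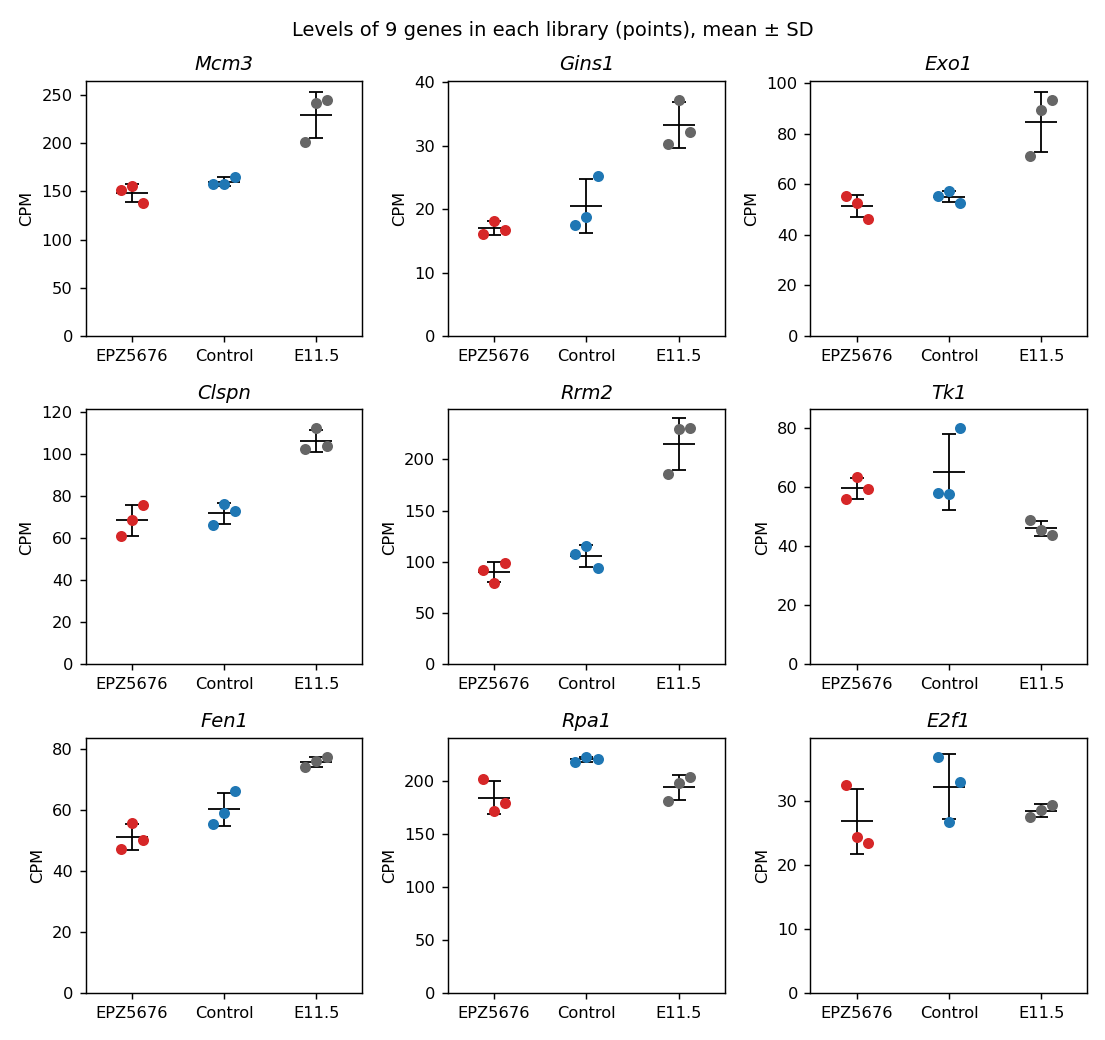
CPM (y axis, from 0) of 9 genes from different steps in EPZ5676, Control and E11.5 libraries. Points are libraries, and bars give the mean ± SD of 3 libraries. Rrm2 shows 79.36 to 98.8 CPM in EPZ5676, 94.11 to 115.9 CPM in Control and 185.5 to 230.3 CPM in E11.5 libraries, whereas E2f1 overlaps in all groups.

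Neither regulator of the G1 to S transition was called. E2f1, an activating E2F factor, stood at 32.58, 24.43 and 23.45 CPM in EPZ5676, 36.93, 26.81 and 33.07 CPM in Control, and 27.49, 28.65 and 29.44 CPM in E11.5 libraries (log2 0.18 ± 0.16, adjusted p = 0.395). E2f2, its relative, stood at 17.71, 11.99 and 18.73 CPM in EPZ5676, 16.56, 14.48 and 7.95 CPM in Control, and 14.57, 14.55 and 14.41 CPM in E11.5 libraries (log2 -0.15 ± 0.26, adjusted p = 0.684). The groups overlapped for E2f1 and for E2f2, and the sign for E2f2 turned to 0.11 without Control 3. Among the genes acting on chromatin behind the fork, Uhrf1, which keeps DNA methylation through replication, stood at 193.1, 153.8 and 179.4 CPM in EPZ5676, 195.9, 191.7 and 151 CPM in Control, and 230.5, 272.1 and 266.2 CPM in E11.5 libraries (log2 -0.51 ± 0.13 in Control, adjusted p = 0.00874). Chaf1a, the large subunit of the CAF-1 histone chaperone, stood at 103.4, 92.1 and 99.23 CPM in EPZ5676, 111.7, 109.1 and 107.9 CPM in Control, and 120.3, 136.8 and 139.2 CPM in E11.5 libraries. It fell in Control (log2 -0.27 ± 0.09, adjusted p = 0.0288), while its mean TPM gave a larger gap, 38.3 ± 5.08 in Control against 76.5 ± 3.01 in E11.5 libraries (SD, n = 3 each). The Chaf1a count call was lost with no filter on low counts (adjusted p = 0.119) and without Control 2, Control 3, E11.5 2 or E11.5 3 (adjusted p = 0.0537 to 0.108). Slbp, which binds the stem loop of histone mRNA, stood at 134.9, 153.4 and 153.6 CPM in EPZ5676, 123.7, 158.7 and 168.4 CPM in Control, and 166, 176.8 and 170.6 CPM in E11.5 libraries, and was not called (log2 -0.19 ± 0.11, adjusted p = 0.22). Chaf1b was not called.

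**Figure D4:**
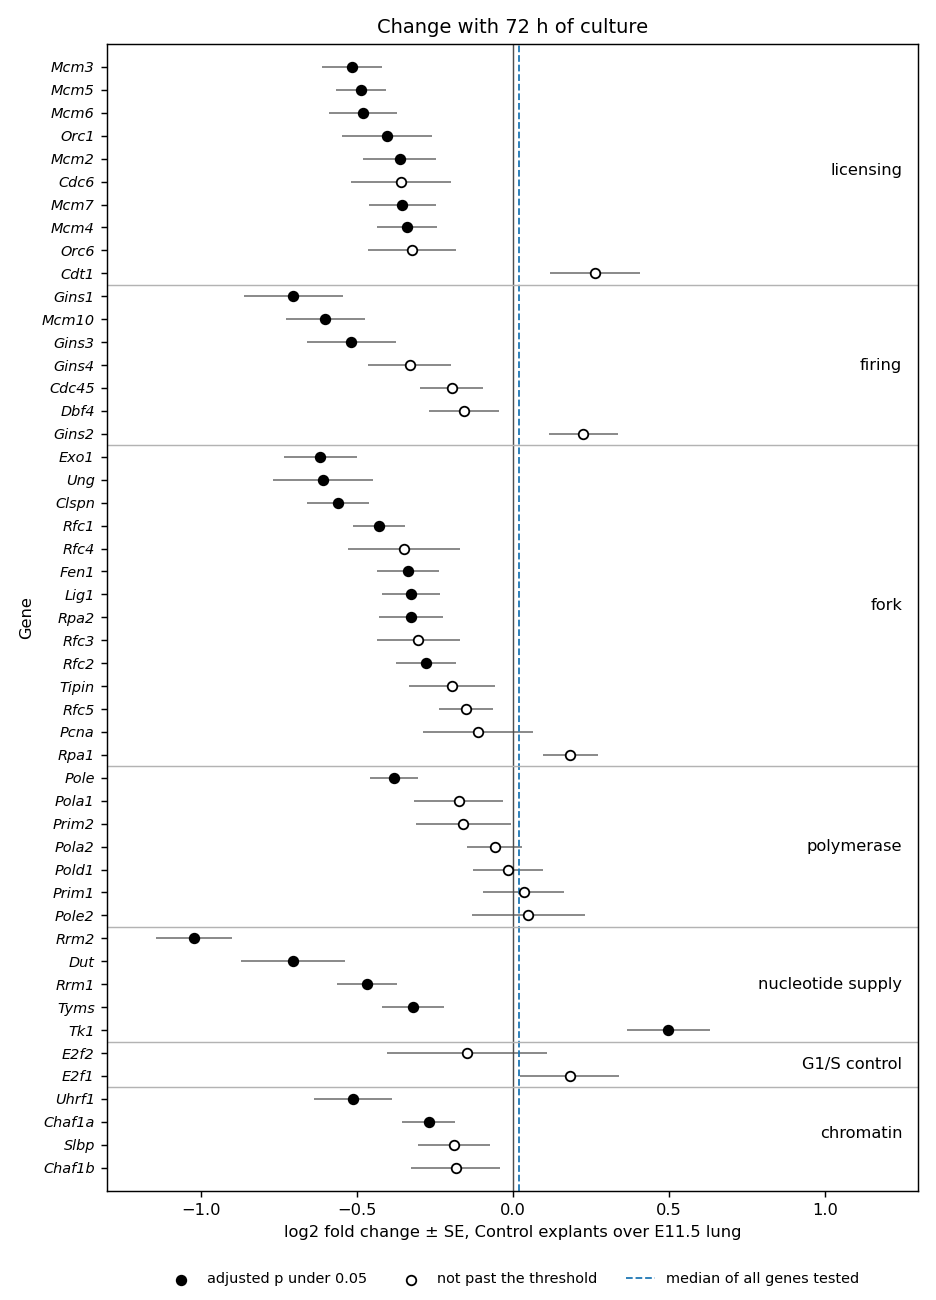
Log2 fold change of each of the 49 genes in Control against E11.5 libraries (x axis), with its SE, grouped by step (rows). Filled points are the 25 genes that fell and Tk1, which rose, at an adjusted p under 0.05. Rrm2 lies farthest left at -1.02, and of the 7 polymerase genes only Pole is filled.

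Genes fell both among those with an E2F word in a window and among those without one. A window without the words searched was not shown to lack an E2F site. Of the 16 genes with the word in a window, 9 fell, with a median log2 fold change of -0.36, and of the 24 with a window and no word, 11 fell, with a median of -0.295. Of the 9 genes with no window, 5 fell, with a median of -0.33. The share of all genes tested that fell was 16.6%. Rrm2 and Dut were among those without the word. The difference between these groups of genes was not tested.

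With EPZ5676, none of the 49 genes was called against Control, and neither was any of the 15158 genes tested (0% in each direction). At an unadjusted p under 0.05, 2 of the 49 were lower (4.08%), Rpa1 and Fen1, against 2.8% of all genes, and none was higher, against 4.14%. DESeq2 called 83 genes and none of the 49. The fold changes were small and mostly below 0: 46 of 49 were below 0 (93.9%), against 50.8% of all genes, and the median was -0.15 on the log2 scale, a change of -9.63%, against -0.004 for all genes tested. The range was -0.27 to 0.30. Ung, Dut and E2f2 were above 0. The size of this shift depended on Control 3. Without it the median was -0.06 and 37 of 49 were below 0, while leaving out each other cultured library gave medians of -0.18 to -0.11. In fits of the TPM values the median was -0.10, with 37 below 0. Control 3 had the highest CPM of all 9 libraries in 10 of the 49 genes and the lowest epithelial (656.6 TPM) and endothelial (26.86 TPM) marker sums of the cultured libraries, and the part of this in the shift was not tested. CPM ranges did not overlap, with EPZ5676 lower, in 8 of 49 genes (16.3%), against 4.45% of all genes: Mcm3, Mcm5, Cdc45, Gins2, Rpa1, Pole, Tyms and Chaf1a. By TPM there were 4 such genes (8.16%), against 2.59% of all genes: Gins1, Mcm10, Fen1 and Tyms. Of the 8 genes named by CPM, only Tyms was among them, and the others overlapped in TPM. For none of the 49 were EPZ5676 libraries all above Control libraries, by CPM or by TPM, against 5.79% and 5.64% of all genes.

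Rpa1 had the smallest p of the 49. It stood at 201.8, 171.5 and 179 CPM in EPZ5676, against 217.6, 222.7 and 221 CPM in Control libraries, and its log2 fold change was -0.26 ± 0.09 (adjusted p = 0.548). In CPM the Control libraries lay close together and above all EPZ5676 libraries. In TPM the groups overlapped, at 135.56, 101.78 and 116.59 TPM in EPZ5676 and 147.72, 141.03 and 115.6 TPM in Control libraries. Fen1, which trims Okazaki fragment flaps, stood at 47.34, 55.67 and 50.19 CPM in EPZ5676, against 55.55, 59.02 and 66.13 CPM in Control libraries, and the groups overlapped slightly (log2 -0.24 ± 0.10, adjusted p = 0.684). In TPM they did not overlap, at 36.89, 38.53 and 36.27 TPM in EPZ5676 and 44.8, 42.7 and 42.41 TPM in Control libraries. The next smallest were Gins2 (log2 -0.24 ± 0.11, adjusted p = 0.725), Pole (-0.17 ± 0.08, adjusted p = 0.73) and Tyms (-0.21 ± 0.10, adjusted p = 0.743), whose EPZ5676 libraries all lay below their Control libraries in the CPM values given above. In TPM the groups overlapped for Gins2 and Pole and did not for Tyms. By step, the median log2 fold change with EPZ5676 was -0.18 for licensing, -0.165 for firing, -0.07 for fork, -0.125 for polymerase, -0.13 for nucleotide supply, 0.02 for the 2 G1/S regulators and -0.095 for chromatin genes. The MCM2-7 subunits ran from -0.19 (Mcm2 and Mcm6) to -0.09 (Mcm4). For Mcm3 (-0.11), Clspn (-0.07), Uhrf1 (-0.03), Chaf1a (-0.16), Slbp (-0.03) and Rrm1 (-0.05) the TPM fits gave values between 0.003 and 0.082, so that no direction is given for them. Signs in the TPM fits were listed for part of the 49 only. Mean TPM was also higher in EPZ5676 than in Control for Tipin (153.9 and 146.1), Rpa2 (49.46 and 48.42) and Rfc4 (66.77 and 66.55). Tk1, the gene that rose in culture, had a log2 fold change of -0.13 ± 0.13 with EPZ5676 (adjusted p = 0.909), which turned to 0.04 without Control 3.

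**Figure D5:**
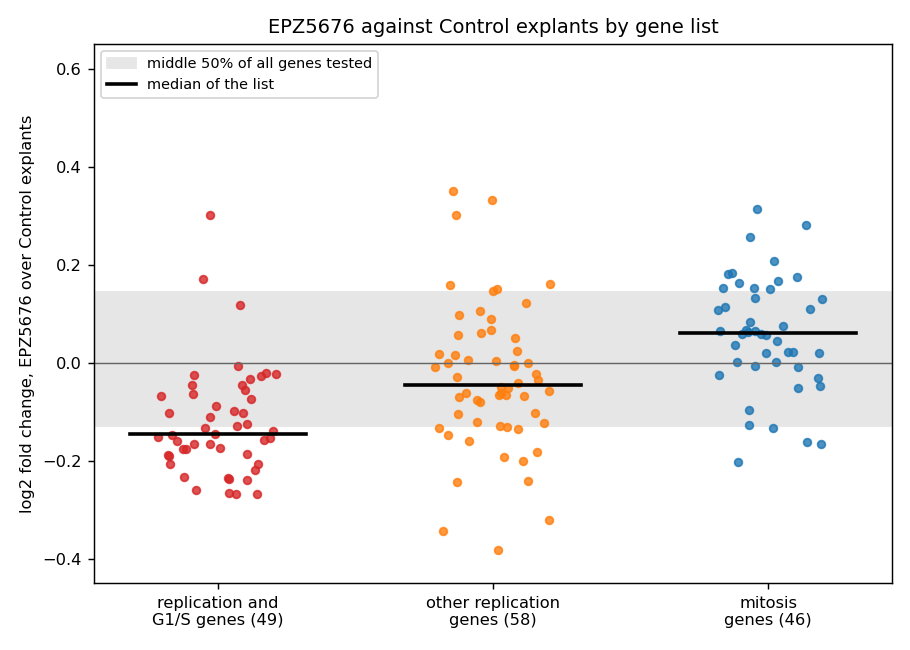
Log2 fold change in EPZ5676 against Control libraries (y axis) for the 49 replication and G1/S genes, 58 other replication genes and 46 mitosis genes. Points are genes, and the shaded band holds the middle 50% of all genes tested (-0.13 to 0.145). The 49 genes have a median of -0.15, the other replication genes -0.045 and the mitosis genes 0.06, and none of these genes was called.

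Against the E11.5 lung, the EPZ5676 libraries had 30 of the 49 genes lower and 1 higher, again Tk1, while 17.9% of all genes tested fell and 22.1% rose. This comparison shares the E11.5 libraries with the Control comparison, so the values are given side by side. The median log2 fold change was -0.43 in EPZ5676 and -0.33 in Control against E11.5. It was -0.57 and -0.36 for licensing genes, -0.38 and -0.33 for firing genes, -0.41 and -0.33 for fork genes, -0.12 and -0.06 for polymerase genes, -0.53 and -0.47 for nucleotide supply, 0.035 and 0.018 for the 2 G1/S regulators, and -0.41 and -0.23 for chromatin genes. Orc6, Cdc6, Cdc45, Gins4 and Rfc3 were called lower in EPZ5676, with log2 fold changes of -0.50, -0.58, -0.36, -0.38 and -0.45, and were not called in Control, with -0.32, -0.36, -0.20, -0.33 and -0.30. Each of these 5 lost its call in at least 1 fit that left out a library: Orc6 without E11.5 2, EPZ5676 1 or EPZ5676 3, Cdc6 without E11.5 3, Cdc45 without E11.5 3 or EPZ5676 3, Gins4 without any library except EPZ5676 2, and Rfc3 without E11.5 2, E11.5 3 or EPZ5676 1. The difference between EPZ5676 and Control was the comparison above, in which none passed the test. Rrm2 again had the largest change, -1.26 ± 0.12 (adjusted p = 3.48e-05), followed by Gins1 at -0.97 ± 0.16 (adjusted p = 0.000877). Mcm6 was at -0.67 ± 0.11 (adjusted p = 0.000846) and Mcm5 at -0.65 ± 0.08 (adjusted p = 0.000156). Tk1 stood at 0.37 ± 0.13 (adjusted p = 0.0454) and lost its call when any 1 of the 6 libraries was left out (adjusted p = 0.055 to 0.153). Ung passed narrowly (adjusted p = 0.049) and lost its call without any 1 library except EPZ5676 1. Dut lost its call without E11.5 3, EPZ5676 2 or EPZ5676 3 (adjusted p = 0.0511 to 0.0608). CPM ranges did not overlap, with EPZ5676 lower, in 39 of 49 genes (79.6%), against 27.4% of all genes.

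Other genes of replication moved with the 49 in culture. Of 58 further genes of origin licensing, fork accessory, nucleotide and E2F/RB function, 22 fell and 1 rose in Control against E11.5, with a median log2 fold change of -0.29. The share that fell was 37.9%, while 16.6% of all genes tested fell and 21.1% rose. Nasp, a histone chaperone, stood at 305.4, 284.7 and 328 CPM in EPZ5676, 300.8, 389.1 and 457.8 CPM in Control, and 816.4, 973.8 and 963.1 CPM in E11.5 libraries (log2 -1.26 ± 0.15 in Control, adjusted p = 0.000125). E2f5, a repressive E2F factor, fell by a similar amount (log2 -1.14 ± 0.13, adjusted p = 0.000105), and Dna2, a nuclease and helicase of Okazaki fragment processing, fell less (log2 -0.76 ± 0.13, adjusted p = 0.00113). Rbl2, an RB-family protein that holds E2F targets off in resting cells, was the gene that rose, to 37.03, 48.08 and 33.7 CPM in Control, against 24.19, 19.15 and 23.25 CPM in E11.5 libraries (log2 0.83 ± 0.16, adjusted p = 0.0022). It was not called in the TPM fits (adjusted p = 0.11 and 0.111). With EPZ5676, none of the 58 was called against Control, 37 were below 0 (63.8%, against 50.8% of all genes tested) and the median was -0.045. The smallest p among them were those of Tfdp2, a partner of E2F factors (log2 -0.38 ± 0.15, adjusted p = 0.663), and Nasp (-0.32 ± 0.14, adjusted p = 0.713).

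Mitosis genes fell in culture as well, and with EPZ5676 their median lay on the other side of 0. Of 46, 30 fell in Control against E11.5 and none rose, with a median log2 fold change of -0.465. The share that fell was 65.2%, while 16.6% of all genes tested fell and 21.1% rose. Mki67, a marker of dividing cells, stood at 717.9, 810.8 and 805.8 CPM in EPZ5676, 614.7, 818.1 and 634.9 CPM in Control, and 913.6, 1001 and 1031 CPM in E11.5 libraries (log2 -0.51 ± 0.12 in Control, adjusted p = 0.00745). Ccnb1, the mitotic cyclin, fell by a log2 fold change of -0.46 ± 0.13 (adjusted p = 0.0154). Cdca8, of the chromosomal passenger complex, and Bub1b, of the spindle checkpoint, had the largest changes in size, -0.66 ± 0.08 (adjusted p = 0.000222) and -0.65 ± 0.10 (adjusted p = 0.000588). With EPZ5676 none of the 46 was called against Control, 34 were above 0 and the median was 0.06. The share below 0 was 26.1%, against 50.8% of all genes tested. The mean log2 CPM of the 46 was 6.599, 6.741 and 6.65 in EPZ5676 libraries and 6.46, 6.763 and 6.566 in Control libraries. Control 2 thus lay above every EPZ5676 library. How far the median of the 46 depended on single libraries was not tested. Mki67 had a log2 fold change of 0.18 ± 0.12 there (adjusted p = 0.844) and Cdca8 of 0.17 ± 0.08 (adjusted p = 0.76). The mean log2 CPM of the 49 replication genes minus that of the 46 mitosis genes was -0.531, -0.654 and -0.584 in EPZ5676 libraries, -0.349, -0.588 and -0.285 in Control libraries, and -0.569, -0.539 and -0.501 in E11.5 libraries. EPZ5676 and Control libraries overlapped through Control 2, so the gap between the gene groups was not larger in every treated library.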

How the data were processed

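Bulk RNA-seq of total RNA (TRIzol; Vazyme VAHTS Universal V8 library kit, per the labels' protocols) gave 9 libraries in 3 groups of 3. The authors deposited 1 table of expected counts and 1 of TPM per gene. RSEM, Bowtie2 and the build mm10 are named in the submitters' processing notes. The strandedness of the counting was not given in the sources used here, and reads of overlapping antisense genes cannot be told apart. Of the deposited expected counts, 12.5 to 15.3% per library were not whole, and they were rounded. TPM was deposited as normalized by the authors and sums to 998977 to 999233 per library. Counts of 55286 genes were filtered with filterByExpr (minimum count 10), leaving 15158. They were scaled by TMM and tested in 1 edgeR 4.0.16 quasi-likelihood fit of all 9 libraries (6 residual degrees of freedom), with Benjamini-Hochberg adjustment over all genes tested and a threshold of 0.05. The SE is the log2 fold change divided by the square root of F. Mean log2 CPM used a prior count of 2. The scripts were tested on simulated data. Replicates differed beyond sampling noise, so none was counted as a duplicate.

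Alternatives were DESeq2 1.42.0, scaling by RLE or by the upper quartile, no filter or at least 50 counts in 3 libraries, only the 6 libraries compared, the replicate number as a block, limma 3.58.1 on log2(TPM + 1) and log2(TPM + 0.1), leaving out each library, and edgeR's newer quasi-likelihood method, the last chosen after seeing the data. The 49 genes and all lists were chosen with earlier results of these data known. The genes given with every library's value are, per step, up to 3 with the largest change in Control against E11.5 and the 5 with the smallest p in EPZ5676 against Control. Others were named after their values were seen. From the other replication genes, up to 4 called genes with the largest change, or else the 2 with the smallest p, were named, and from the mitosis genes Mki67, Ccnb1 and the 2 called genes with the largest change. Promoters are those of the RefSeq table for GRCm38.p6.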

Additional observations from a re-analysis of the deposited data

How the results depend on the processing

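In Control against E11.5, the median log2 fold change of the 49 genes lay between -0.40 and -0.25 in the 16 alternatives, and 21 to 27 of the 49 were called in the 10 alternatives that left no library of the comparison out. Leaving out 1 library gave 13 to 30 calls (15 without E11.5 2, 13 without E11.5 3). In EPZ5676 against E11.5 the calls numbered 30 to 39 and, without 1 library, 22 to 29. The median there was -0.501 to -0.401 without 1 library, with -0.501 without E11.5 1.

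In EPZ5676 against Control no alternative called any of the 49. Over all genes, DESeq2 called 83, the analysis with no filter 76 and the replicate block 1. Leaving out 1 library gave 0 to 26 calls, with 26 without EPZ5676 2. The median of the 49 was -0.102 in the fit of log2(TPM + 1), -0.104 in that of log2(TPM + 0.1), and -0.183 to -0.0579 without 1 library.

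Some small fold changes turned their sign. In the fits of log2(TPM + 1) and log2(TPM + 0.1), Gins2 was -0.631 and -0.646 in Control against E11.5, and Cdt1 was -0.018 and -0.019 in EPZ5676 against E11.5. The same fits of EPZ5676 against Control gave 0.081 and 0.082 for Clspn, 0.006 and 0.007 for Uhrf1, and 1 value in both fits for Mcm3 (0.009), Chaf1a (0.003), Slbp (0.01) and Rrm1 (0.01). Without 1 library, Control against E11.5 ranged from -0.366 to 0.106 for E2f2 and from -0.35 to 0.082 for Pcna. EPZ5676 against E11.5 ranged from -0.08 to 0.079 for Gins2 and from -0.087 to 0.131 for Cdt1. EPZ5676 against Control ranged from -0.153 to 0.008 for Clspn, -0.252 to 0.091 for Pola1, -0.304 to 0.015 for Prim2, -0.067 to 0.27 for Dut, -0.211 to 0.04 for Tk1, -0.145 to 0.052 for Uhrf1, -0.151 to 0.061 for Slbp and -0.132 to 0.005 for Rrm1. None of these passed the threshold except Gins2 in the TPM fits of Control against E11.5 (adjusted p = 0.0176 and 0.0182). In EPZ5676 against E11.5 the TPM fits also called Gins2 lower, at -0.783 and -0.804 (adjusted p = 0.00521 and 0.00555). The main count fit gave -0.01 there. The cause was not tested.

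Replicate numbers were not treated as pairs, because same-numbered libraries did not deviate together in every pair (correlations of 0.457, 0.079 and -0.047 for EPZ5676 with Control, and of -0.102 to 0.03 for the comparisons with E11.5). With the replicate block 27 of the 49 were called in Control against E11.5, 0 in EPZ5676 against Control and 33 in EPZ5676 against E11.5. In Control against E11.5 the block added Cdc6 and Rfc3 (adjusted p = 0.0315 and 0.0428) and dropped Rfc2 (adjusted p = 0.0602). In EPZ5676 against E11.5 it added Dbf4, Pcna and Prim2 (adjusted p = 0.044 to 0.0495) and dropped Tk1 (adjusted p = 0.0559). Depth limits the least expressed gene, E2f2, most.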
